A study of Homo sapiens with 8 samples.

Results

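The 51 genes described here encode the proteins that license DNA replication origins, unwind and copy the DNA at the fork and supply its nucleotides, together with CAF-1, which places histones on the new DNA, and the transcription factors E2F1 and E2F2. They were taken by name from the table of normalized counts, and all 51 listed genes were among its 13307 genes. The list rests on names and not on a cutoff of measured values, but it was drawn up with earlier results of these data known. mRNA was sequenced in Panc-1 cells, an established line from a human pancreatic ductal adenocarcinoma, in 4 conditions with 2 libraries each. The siControl cells received a non-targeting siRNA and the siPHF13 cells received siRNAs against PHF13, a PHD finger protein that binds methylated H3K4. The siControl + TGFβ and siPHF13 + TGFβ cells received the same siRNAs and then 10 ng/ml TGFβ for 48 h. All conditions share the transfection and the line, and no second set of siRNAs and no re-expression of PHF13 was measured in these libraries.

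In G1 phase the origin recognition complex (ORC), CDC6 and CDT1 load the ring-shaped MCM helicase onto origins, a step called licensing that geminin (GMNN) blocks once S phase begins. The kinase CDC7 with DBF4, together with MCM10, CDC45 and the GINS complex, then turns the loaded ring into an active helicase. The polymerases, the sliding clamp PCNA with its loader RFC and the single-strand binding protein RPA copy the opened strands. Many of these genes are transcribed at the boundary of G1 and S phase under E2F factors, which the retinoblastoma protein restrains, and TGFβ is known to arrest many epithelial cells in G1. In bulk RNA, fewer cells in S phase and less of these RNAs per cell cannot be told apart.

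Reads on genes numbered between 39196214 and 46700806 per library. PHF13 counts were 1804 and 1662 in siControl and 524.2 and 558.3 in siPHF13, or 31.3% left, and 31.7% were left under TGFβ, where the counts were 1586 and 1709 against 512.8 and 529.4. The 5 epithelial and ductal markers were in the table (KRT7, KRT8, KRT18, KRT19 and EPCAM), with summed counts of 193400 to 204000 in siControl, 171800 to 194400 in siPHF13, 121700 to 127400 in siControl + TGFβ and 138400 to 150100 in siPHF13 + TGFβ. Of the 6 fibroblast markers, COL1A1 and PDGFRB were in the table (summed counts of 3371 to 3462, 1917 to 1970, 15360 to 16470 and 4736 to 4946 in the same order), and of the leukocyte markers examined CD68 was (7236 to 7360, 11900 to 13050, 6137 to 7666 and 10520 to 13400). PTPRC, CD3E, LYZ, the endothelial, acinar and endocrine markers and CDKN2A, a gene known to be deleted in Panc-1, had no row in the table. These marker sums moved with the conditions, and their part in the results below was not tested. The epithelial list did not move as one. From siControl to siPHF13, KRT8 (113000 and 120000 against 95780 and 112900) and KRT18 were lower and KRT7 overlapped. KRT19 (32430 and 34320 against 38580 and 40980) and EPCAM (157.4 and 157.7 against 240.7 and 305.8) were higher. Squared differences between replicates were 3.64, 10.7, 11.5 and 23.3 times the counting variance over all genes in these 4 conditions, and 2.22, 4.68, 5.43 and 19.8 times over the replication genes. The siPHF13 + TGFβ pair was thus the most spread, and its replicate 2 lay above replicate 1 in 39 of the 51 genes. The part of these differences in the results below was not tested beyond leaving out each library in turn.

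The upstream sequence of these genes is shown first because it carries the letters that E2F factors are known to bind. Promoters were read from GRCh37 between 250 bases before and 50 bases after the start of each gene's transcript and searched on both strands for TTTCCCGC, TTTGGCGC, TTTCGCGC and TTTGCCGC. The words can overlap one another on opposite strands. At least 1 of them stood in 23 of the 51 promoters (45.1%), against 683 of 13114 promoters of the table's genes (5.21%). All 6 MCM subunit genes and both E2F genes held a match, as did 6 of 9 polymerase and primase genes, but only 1 of 6 clamp and loader genes. CCAAT, the word bound by NF-Y, stood in 28 promoters (54.9%, against 35.6% of all), and the CHR words of mitotic promoters, TTTGAA and TTCGAA, in 4 (7.84%, against 10.3%). The second list of replication genes, described last in these Results, held an E2F word in 15 of 50 promoters (30%). It held CCAAT in 28 (56%) and a CHR word in 6 (12%). A match is a description of the letters and not a bound site. A set of 8 matching stretches is printed for genes whose levels or fold changes are given below. They run 5′ to 3′ on the gene's strand and upstream of its transcript start, with the E2F words in capitals.
E2F1, chr20:32274192-32274254, minus strand: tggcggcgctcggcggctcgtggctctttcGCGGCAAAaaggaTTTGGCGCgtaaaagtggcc
E2F2, chr1:23857730-23857797, minus strand: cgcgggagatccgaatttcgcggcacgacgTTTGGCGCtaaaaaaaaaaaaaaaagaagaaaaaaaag
CDT1, chr16:88870132-88870196, plus strand: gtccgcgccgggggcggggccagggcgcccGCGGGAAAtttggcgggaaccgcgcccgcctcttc
MCM5, chr22:35795904-35795975, plus strand: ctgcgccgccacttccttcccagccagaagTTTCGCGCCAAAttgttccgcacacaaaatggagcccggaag
MCM6, chr2:136634062-136634195, minus strand: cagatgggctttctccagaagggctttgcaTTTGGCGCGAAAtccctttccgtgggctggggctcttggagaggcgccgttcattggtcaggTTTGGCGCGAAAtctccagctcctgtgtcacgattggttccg
POLA2, chr11:65029350-65029417, plus strand: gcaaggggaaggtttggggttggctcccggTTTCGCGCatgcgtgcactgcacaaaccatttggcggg
RFC3, chr13:34392201-34392268, plus strand: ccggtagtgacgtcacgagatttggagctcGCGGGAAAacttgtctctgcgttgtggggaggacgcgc
TYMS, chr18:657584-657651, plus strand: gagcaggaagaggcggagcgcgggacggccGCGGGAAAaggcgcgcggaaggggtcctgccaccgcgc

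In MCM5 and MCM6 the capitals hold words of both strands that overlap by 4 letters, and MCM6 holds such a pair at each of 2 places.

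Levels between genes were compared as normalized counts per kb of transcript. Reads were counted on all exons of a gene, but each length is that of 1 transcript, so the order below depends on this choice. All annotated exons cover 4960 bases in MCM7 and 1403 in PCNA, against transcript lengths of 2467 and 1276. An order by exon bases was not computed, and the SD between libraries does not cover this uncertainty. In siControl cells MCM7, a subunit of the helicase ring, stood at 5140 ± 27 per kb (SD, n = 2), ahead of the clamp PCNA at 4090 ± 1.6 and the ribonucleotide reductase subunit RRM2 at 3850 ± 47. The other ring subunits followed in the order MCM3 (1900 ± 25), MCM4 (1840 ± 16), MCM2 (1560 ± 38), MCM5 (1090 ± 11) and MCM6 (879 ± 11), although the protein ring holds one copy of each. Both libraries of each of these subunits lay apart from those of the next. Among ORC subunits the order was ORC3 (1130 ± 23), ORC2 (706 ± 14), ORC5 (632 ± 48), ORC6 (596 ± 9.5), ORC1 (373 ± 9.8) and ORC4 (259 ± 4.7), and ORC5 and ORC6 overlapped. E2F2 (103 ± 6.1) and GINS4 (102 ± 5.7) had the lowest levels per kb and their libraries overlapped.

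**Figure D1:**
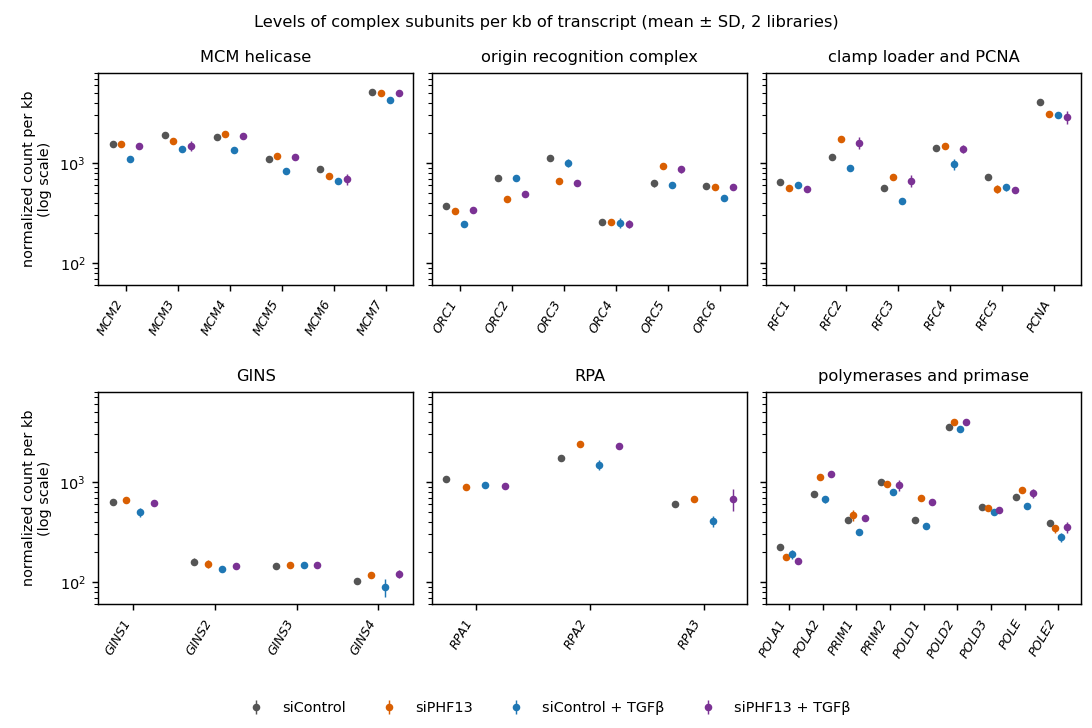
Normalized counts per kb of transcript (log scale) for the subunits of 6 complexes, as points at the mean of 2 libraries with the SD as bars, coloured by condition. MCM7 stood at 5140 per kb in siControl and at 4260 in siControl + TGFβ, above all other MCM subunits in every condition.

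The first comparison asked how TGFβ moved these genes in cells that had received the non-targeting siRNA. After TGFβ, 49 of the 51 genes were lower, with a median log2 fold change of -0.35 and a range of -0.90 to 0.02, while the median over all genes was -0.01. By limma on log2(normalized count + 1), with p-values adjusted over all 13307 genes, 34 fell at an adjusted p under 0.05 and 0 rose, against 6.67% of all genes that fell and 9.21% that rose. In 45 genes both libraries of siControl + TGFβ lay below both of siControl, which was so for 30.2% of all genes. A change was called only where the log2 fold change also exceeded 0.58 in size, the threshold of the study's methods (1.49-fold). E2F2, TYMS and ORC1 passed it, 3 genes lower and 0 higher, against 1.52% and 3.27% of all genes. Reads on the 51 genes made up 0.3422% and 0.3452% of a library in siControl and 0.2629% and 0.2686% in siControl + TGFβ. With 1 library of siControl or siControl + TGFβ left out, fewer genes passed the adjusted p, among these 51 and also over all genes. The median log2 fold change of the 51 then lay between -0.39 and -0.32. After correction for GC content and transcript length 5 genes were called, all lower, where 657 of 13114 genes were called in either direction.

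E2F2 had the largest fall. Its counts were 512.2 and 556.8 in siControl and 291.1 and 280.8 in siControl + TGFβ, and the groups were far apart (log2 fold change -0.90, SE 0.13, limma adjusted p 0.000308). E2F1, the related activator, read 1426 and 1434 against 981.1 and 984.3 (-0.54, SE 0.087, adjusted p 0.000711). Both activators thus fell, E2F1 by less than the threshold for a call. TYMS, thymidylate synthase, which makes the thymidine nucleotide, read 2324 and 2474 before and 1423 and 1462 after TGFβ (-0.73, SE 0.10, adjusted p 0.000194). In the annotation 47.9% of TYMS exon bases overlap ENOSF1 or TYMSOS on the opposite strand, and the strand setting of the counting is not given in the sources used here. RRM1 and RRM2, the subunits of ribonucleotide reductase, fell as well, by 0.40 and 0.50 on the log2 scale, so all 3 genes of nucleotide supply passed the adjusted p.

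Origin licensing genes were split. ORC1, the ORC subunit whose protein comes and goes with the cell cycle, read 1185 and 1142 in siControl and 747.1 and 778.6 in siControl + TGFβ (-0.61, SE 0.090, adjusted p 0.000381), a value that was -0.58 and no longer called without siControl + TGFβ replicate 1. ORC6, CDC6, CDT1 and GMNN also fell, with log2 fold changes of -0.42, -0.28, -0.40 and -0.36. CDT1, the loader of the helicase, read 840.3 and 908.2 against 681.4 and 639.8. The 4 remaining ORC subunits did not pass the test, with values of 0.01 for ORC2 (95% interval -0.14 to 0.16), -0.17 for ORC3 (-0.34 to 0.01), -0.04 for ORC4 (-0.24 to 0.16) and -0.06 for ORC5 (-0.25 to 0.14). All 4 intervals lay above the -0.61 of ORC1.

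The genes of the MCM helicase fell together. All 6 subunits passed the adjusted p, between -0.27 for MCM7 and -0.50 for MCM2, and in each both treated libraries lay below both controls. MCM7 read 12737 and 12644 in siControl and 10462 and 10578 in siControl + TGFβ (SE 0.060, adjusted p 0.00721). None of the 6 reached the threshold for a call.

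Among origin firing genes, MCM10 (-0.57), CDC45 (-0.45), CDC7 (-0.38) and GINS1 (-0.35) fell, while DBF4, GINS2, GINS3 and GINS4 lay between -0.24 and 0.02 and did not pass. CDC45, which joins MCM and GINS in the active helicase, read 772.1 and 739.7 against 518.6 and 588.3 (SE 0.10, adjusted p 0.007). At the fork, POLE, its subunit POLE2 and the primase genes PRIM1 and PRIM2 fell by 0.28 to 0.47 on the log2 scale. The catalytic subunit of polymerase δ, POLD1, did not pass (-0.21, interval -0.38 to -0.04, adjusted p 0.0966), nor did POLA1, POLA2, POLD2 and POLD3. PCNA (-0.43) and every loader subunit except RFC1 (-0.11) fell, with RFC4 (-0.53) lowest. RPA3, LIG1, FEN1 and DNA2 fell too, whereas RPA1 (-0.18) and RPA2 (-0.22) had adjusted p values of 0.0941 and 0.1. CHAF1A, the large subunit of CAF-1, read 1368 and 1455 against 1204 and 1105 (-0.29, SE 0.084, adjusted p 0.0314), and CHAF1B did not pass (-0.11).

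The 23 genes with an E2F word and the 28 without one had nearly the same median after TGFβ in control cells, -0.36 and -0.35, with 16 and 18 of them below an adjusted p of 0.05. For depletion under TGFβ, described below, their medians were 0.39 and 0.3. For the interaction the medians were 0.29 and 0.25. There 16 and 12 genes reached an unadjusted limma p under 0.05, where 1259 of all 13307 genes did. These splits were not tested.

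**Figure D2:**
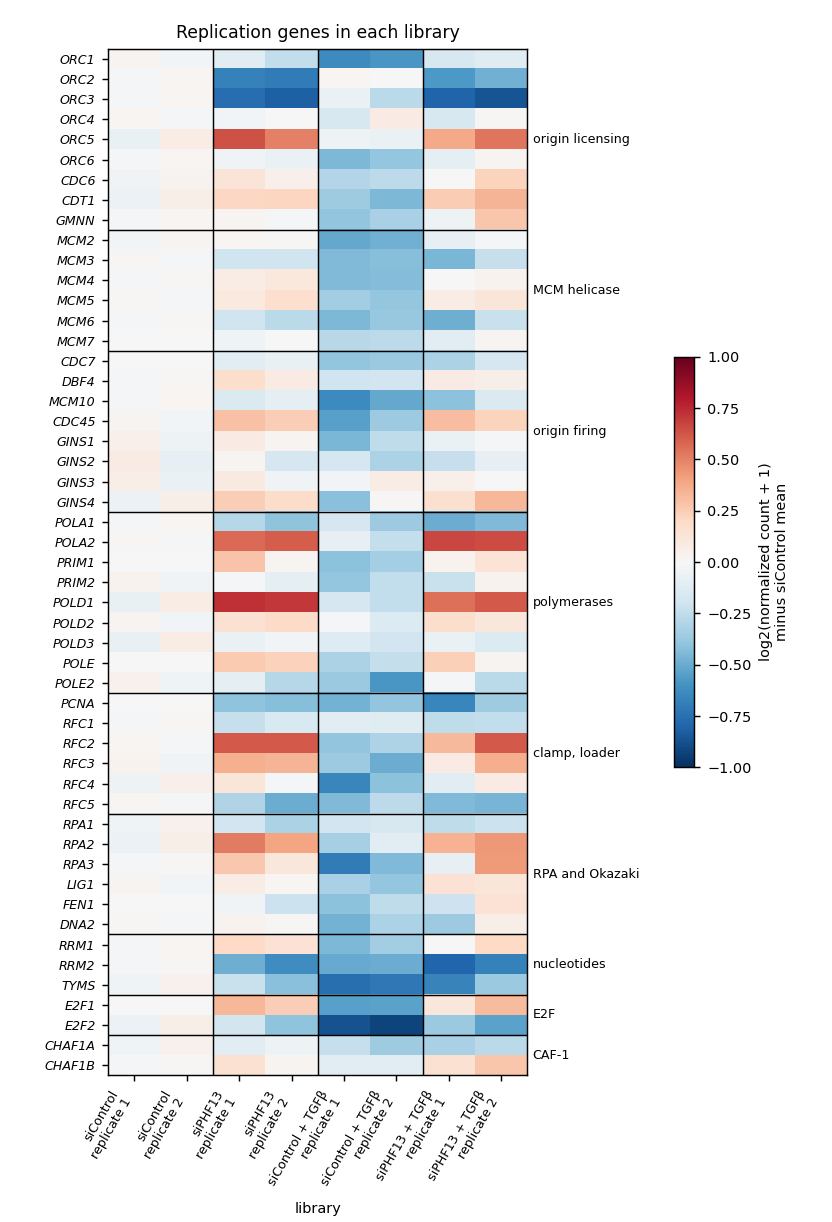
Heat map of the 51 genes (rows, by role) in the 8 libraries (columns), coloured by log2(normalized count + 1) minus the siControl mean of the gene. Both siControl + TGFβ libraries were low in nearly every row (median -0.386 and -0.322), whereas the medians of the siPHF13 + TGFβ libraries were -0.084 and 0.03.

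The next comparison asked what TGFβ did in cells depleted of PHF13. Of the 51 genes, 37 were lower, with a median log2 fold change of -0.06 and a range of -0.22 to 0.16. By limma, 0 genes passed an adjusted p of 0.05 in either direction, where 2.22% of all genes rose and 0.857% fell, and 0 were called, where 1.13% of all genes rose and 0.218% fell. edgeR and DESeq2 on the recovered reads also found 0. An unadjusted limma p under 0.05 was reached by 3 of the 51 genes, where 1853 of all 13307 genes reached it. The 3 were RRM2 and CHAF1A, lower, and ORC2, higher, named after their values were seen. In 12 genes both treated libraries lay below both untreated ones, which was so for 19.8% of all genes. A few genes passed the adjusted p, all lower, once siPHF13 + TGFβ replicate 2 was left out. The median was then -0.09, against 0 over all genes. A p that misses the threshold does not show that the genes stayed level, but the intervals bound the change. MCM2, MCM3, MCM4, MCM5, MCM6 and MCM7 had intervals of -0.19 to 0.07, -0.30 to 0.01, -0.20 to 0.05, -0.17 to 0.10, -0.30 to 0.06 and -0.15 to 0.11, where the values in control cells were -0.50, -0.43, -0.44, -0.37, -0.41 and -0.27. In 16 of the 51 genes, among them CHAF1A (-0.40 to -0.04), DNA2 (-0.41 to 0.07) and POLD1 (-0.30 to 0.04), the interval held the value of control cells. In the other 35 it did not, but this count leaves out the error of the control value and is not a test of a difference. The interval of the difference between the responses, tested below as the interaction, lay above 0 in 28 of the 51 genes, before adjustment for the number of genes.

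E2F1 read 1804 and 1699 in siPHF13 and 1544 and 1784 in siPHF13 + TGFβ (-0.08, interval -0.26 to 0.11), and E2F2 read 470.5 and 404.4 against 412.4 and 368.6 (-0.16, interval -0.44 to 0.12). In both genes the groups overlapped. ORC1 read 1084 and 981.5 against 1041 and 1071 (0.03, interval -0.16 to 0.23), and CDC45 read 924 and 894.7 against 934.9 and 883.6 (0.00, interval -0.22 to 0.21). TYMS read 2054 and 1791 against 1509 and 1856, with overlapping groups and a value of -0.20 (interval -0.41 to 0.02). The median gap between the siPHF13 + TGFβ replicates was 0.122 on the log2 scale, against 0.045 in siControl, so that single genes were less well fixed in this condition.

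**Figure D3:**
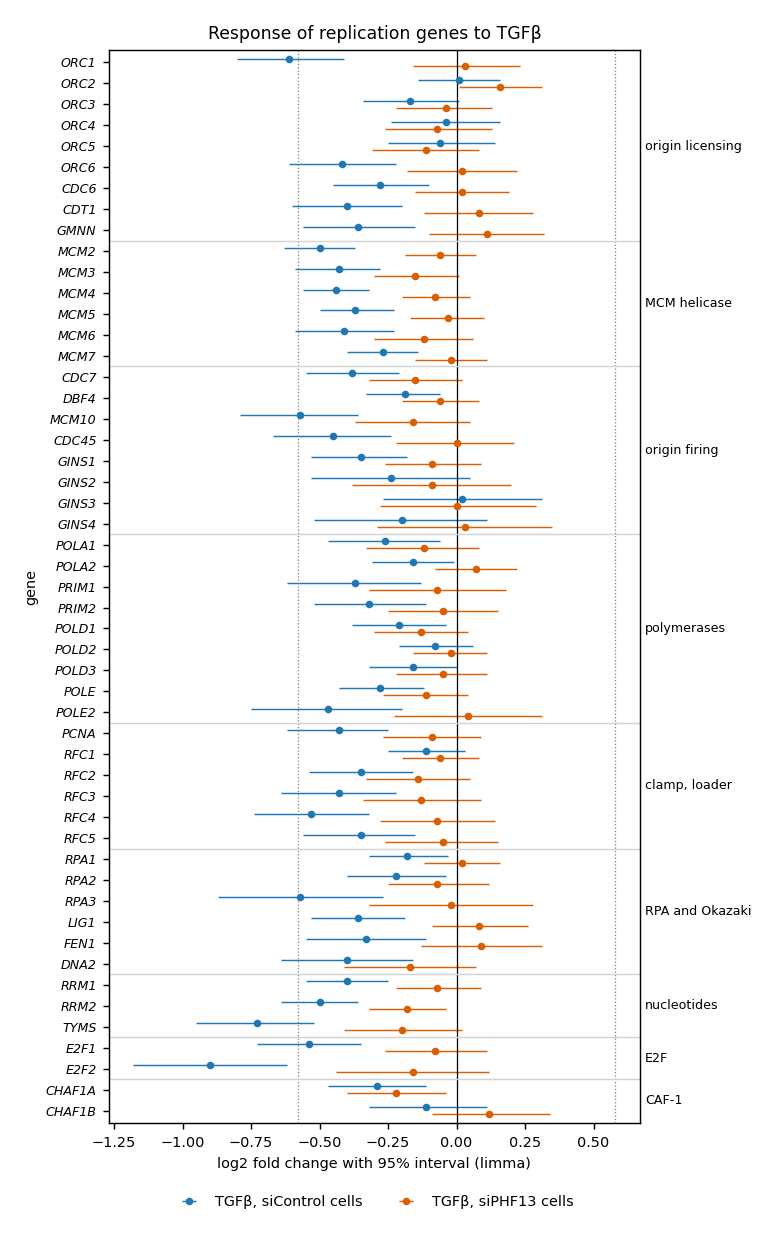
Log2 fold change after TGFβ in siControl cells (blue) and in siPHF13 cells (orange) for each of the 51 genes, with 95% limma intervals, and dotted lines at a size of 0.58. The blue points had a median of -0.35 and the orange points a median of -0.06.

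The difference between these responses was tested directly as the interaction, the response in siPHF13 cells minus that in siControl cells. It was above 0 in 48 of 51 genes, with a median of 0.29 and a range of -0.05 to 0.74, and the median over all genes was -0.01. Single genes were poorly resolved, since the interval of an interaction reached 0.26 to each side at the median, against 0.19 for a comparison of conditions. ORC1 (0.64, SE 0.13, limma adjusted p 0.0485) and MCM2 (0.43, SE 0.086, adjusted p 0.0485) passed, 2 higher and 0 lower, against 0.0902% and 0.323% of all genes. ORC1 alone passed the fold threshold as well, 1 higher and 0 lower against 0.0601% and 0.248% of all genes. At an unadjusted p under 0.05, 28 of the 51 genes were higher and 0 lower, where 4.34% of all genes were higher. These included all 6 MCM genes (0.25 to 0.43), all 3 genes of nucleotide supply (0.32 to 0.54) and both E2F genes (0.46 and 0.74), none of them but MCM2 past the adjusted p.

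MCM2 is named here after its values were seen. It read 5251 and 5433 in siControl, 3737 and 3831 in siControl + TGFβ, 5403 and 5384 in siPHF13 and 5035 and 5291 in siPHF13 + TGFβ. Only the siControl + TGFβ libraries stood clearly apart. In the annotation 23.6% of MCM2 exon bases overlap an unnamed gene on the opposite strand. The counts of genes past the test hung on single libraries. ORC1 and MCM2 both lost the adjusted p without any one library other than siPHF13 + TGFβ replicate 1. The median interaction was 0.18 without siPHF13 + TGFβ replicate 2 and 0.36 without replicate 1. Over all genes the medians were -0.002 and -0.011.

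Depletion without TGFβ moved these genes in both directions. The median log2 fold change of siPHF13 against siControl was 0.01, and the range ran from -0.79 to 0.72. By limma 10 genes rose and 11 fell at an adjusted p under 0.05, a share close to the 23.1% and 24.3% of all genes. POLD1, RFC2 and POLA2 were called higher and ORC2 and ORC3 lower, 3 and 2 genes, where 7.95% and 10.4% of all genes were called. With 1 library of siControl or siPHF13 left out, fewer of these genes passed the adjusted p, and fewer of all genes as well. Their median then lay between 0 and 0.03.

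ORC3 and ORC2, neighbouring subunits of the origin recognition complex, fell together. ORC3 read 2792 and 2875 in siControl and 1675 and 1610 in siPHF13 (-0.79, SE 0.080, limma adjusted p 3.37e-06). ORC2 read 2986 and 3072 against 1899 and 1862 (-0.69, SE 0.069, adjusted p 2.82e-06), a value that was -0.57 and no longer called after the correction for GC content and length. ORC5 moved the other way (0.57, adjusted p 0.00016), just under the threshold for a call. ORC1, ORC4 and ORC6 did not pass, with values of -0.17, -0.01 and -0.05. Subunits of one complex thus had values of both signs after depletion. Since 23.1% of all genes rose and 24.3% fell, values of both signs within a complex do not set these genes apart.

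POLD1, which holds the active site of polymerase δ, read 1362 and 1512 in siControl and 2382 and 2340 in siPHF13 (0.72, SE 0.079, adjusted p 7.12e-06). POLA2, the subunit of polymerase α that does not carry the active site, read 2687 and 2647 against 3955 and 4066 (0.59, SE 0.070, adjusted p 1.31e-05). It was 0.58 and not called without siControl replicate 2, and 0.57 and not called without siPHF13 replicate 2. POLA1, the catalytic partner of POLA2, fell (-0.34, adjusted p 0.00865). In the annotation 21.3% of POLA2 exon bases and 8.63% of POLD1 exon bases overlap exons of another annotated gene, in part on the same strand.

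Clamp loader genes also had values of both signs, with the same limit. RFC2 read 1963 and 1916 against 2968 and 2974 (0.61, SE 0.089, adjusted p 7.32e-05), a value that was 0.56 and not called after the correction for GC content and length. RFC3 rose with it (0.35), while RFC1 (-0.19) and RFC5 (-0.40) fell and RFC4 (0.05) did not pass. The clamp itself, PCNA, fell (-0.41, adjusted p 0.00119). RPA2 rose (0.46) and RPA1 fell (-0.25), and RPA3 did not pass (0.19). RRM2 fell (-0.55, adjusted p 1.09e-05) together with TYMS (-0.32). Among the E2F genes, E2F1 rose (0.29, adjusted p 0.0133) and E2F2 did not pass (-0.29, adjusted p 0.0805). MCM3 and MCM6 fell by 0.20 and 0.24 on the log2 scale, and the 4 other MCM genes lay between -0.02 and 0.13 and did not pass.

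Depletion was also compared in TGFβ-treated cells, with the siControl + TGFβ libraries as the reference. These are the same libraries in which the genes were low, so this comparison and the response of control cells are not independent of each other. The median log2 fold change was 0.32, the range -0.66 to 0.82, and 41 of 51 genes were higher. By limma 32 genes rose and 3 fell at an adjusted p under 0.05, against 24.5% and 25.9% of all genes. In 35 genes both depleted libraries lay above both controls, which was so for 35.6% of all genes. A call was reached by 9 higher genes (POLA2, RFC2, POLD1, E2F1, RPA3, CDC45, CDT1, RFC3 and RPA2) and 1 lower gene (ORC3), against 8.81% and 11.7% of all genes. The median was 0.27 without siPHF13 + TGFβ replicate 2 and 0.38 without its replicate 1. Fewer genes were called in the first case and more in the second, among the 51 and also over all genes.

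POLA2 read 2517 and 2258 in siControl + TGFβ and 4239 and 4186 in siPHF13 + TGFβ (0.82, SE 0.070, adjusted p 5.43e-07). RFC2 read 1475 and 1563 against 2434 and 2971 (0.82, SE 0.089, adjusted p 4.82e-06), and POLD1 read 1278 and 1208 against 2106 and 2198 (0.79, SE 0.079, adjusted p 2.55e-06). These 3 genes were also higher after depletion without TGFβ, at 0.59, 0.61 and 0.72. Their interactions were 0.23 (interval 0.02 to 0.44), 0.21 (-0.06 to 0.48) and 0.07 (-0.17 to 0.32), with adjusted p values from 0.459 to 0.908.

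E2F1 read 981.1 and 984.3 against 1544 and 1784 (0.76, SE 0.087, adjusted p 8.72e-06), and its value without TGFβ was 0.29. CDT1 read 681.4 and 639.8 against 1042 and 1103 (0.70, SE 0.093, adjusted p 3.08e-05), where the value without TGFβ was 0.21. CDC45 read 518.6 and 588.3 against 934.9 and 883.6 (0.72, SE 0.10, adjusted p 4.89e-05), with a value of 0.27 without TGFβ. In these 3 genes the depleted libraries stood at a similar level with and without TGFβ while the control libraries were lower with it. The interactions of 0.46, 0.49 and 0.45 had adjusted p values of 0.177, 0.184 and 0.254.

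RFC3 read 1021 and 926.7 against 1389 and 1684 (0.65, SE 0.098, adjusted p 9.05e-05). RPA3, the smallest RPA subunit, read 741.7 and 889.7 against 1138 and 1617 (0.74, SE 0.14, adjusted p 0.000563). RPA2 read 2184 and 2546 against 3491 and 3705 (0.61, SE 0.084, adjusted p 4.35e-05). All 3 were called, and all 3 calls depended on siPHF13 + TGFβ replicate 2, without which the values were 0.51, 0.49 and 0.57. RPA2 was also not called without siControl + TGFβ replicate 1 (0.50) or after the correction for GC content and length (0.53).

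ORC3 read 2706 and 2352 against 1628 and 1558 (-0.66, SE 0.080, adjusted p 1.4e-05), and was -0.56 and not called without siControl + TGFβ replicate 1. ORC2 read 3069 and 3041 against 2032 and 2175 (-0.54, adjusted p 2.19e-05), just under the threshold. The low level of this pair after depletion was thus present with and without TGFβ, with interactions of 0.12 (interval -0.12 to 0.37) and 0.15 (-0.06 to 0.36). RRM2 was the third gene that fell (-0.24). ORC1, E2F2 and TYMS, the genes called after TGFβ in control cells, had values of 0.47, 0.45 and 0.21, of which ORC1 and E2F2 passed the adjusted p and TYMS did not (adjusted p 0.0894). MCM2, MCM4, MCM5 and MCM7 rose by 0.45, 0.45, 0.47 and 0.23, while MCM3 (0.09) and MCM6 (0.06) did not pass. MCM7 read 10462 and 10578 against 11780 and 12910, and CHAF1A, at 1204 and 1105 against 1128 and 1170, overlapped (-0.01).

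**Figure D4:**
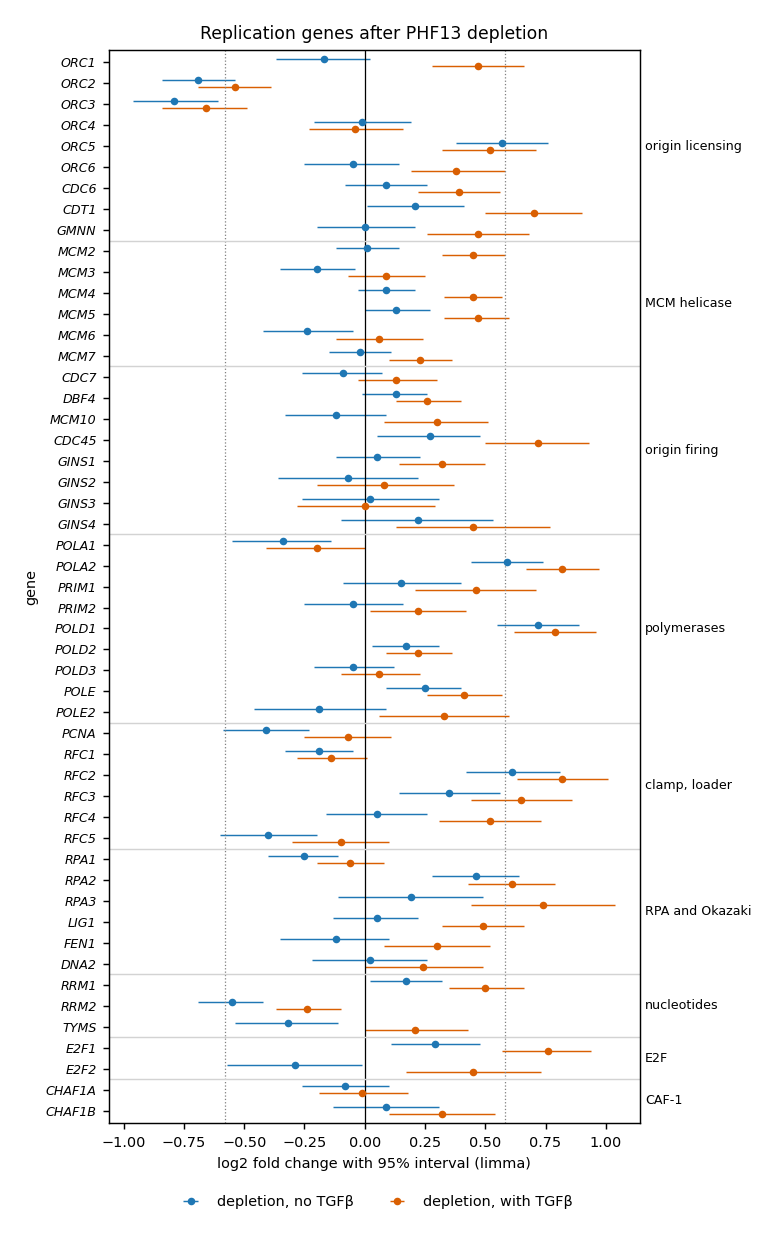
Log2 fold change after PHF13 depletion without TGFβ (blue) and with TGFβ (orange) for the 51 genes, with 95% limma intervals, and dotted lines at a size of 0.58. The medians were 0.01 and 0.32, and ORC2 and ORC3 lay below 0 and POLA2, POLD1 and RFC2 above 0 in both.

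**Figure D5:**
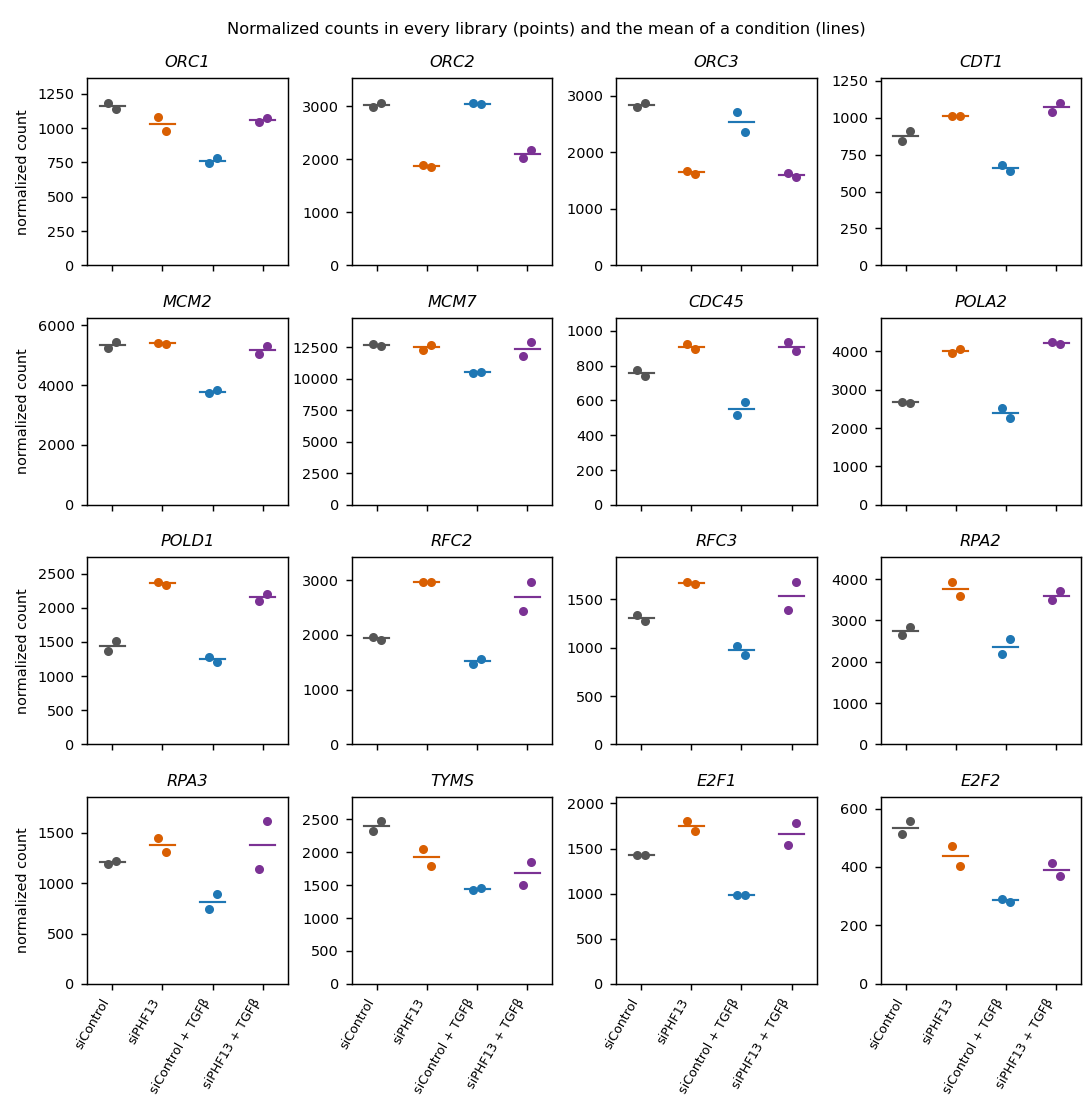
Normalized counts of 16 of the genes in each of the 8 libraries (points) with the mean of each condition (lines), on axes that start at 0. ORC1 fell from 1185 and 1142 in siControl to 747.1 and 778.6 in siControl + TGFβ and read 1041 and 1071 in siPHF13 + TGFβ.

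A second list of 51 replication and S phase genes outside the group (fork protection, RNase H2, histone chaperones, further E2F factors, S phase cyclins and proliferation markers) had 50 genes in the table. After TGFβ in control cells 25 fell and 2 rose at an adjusted p under 0.05, against 6.67% and 9.21% of all genes, with a median of -0.26. E2F8, TOP2A and TK1 were called lower, where 1.52% of all genes were. E2F8, an E2F factor that represses, fell by 0.70 on the log2 scale, and its relative E2F7 rose by 0.51. In depleted cells TOP2A fell (-0.28) and E2F7 rose (0.36) after TGFβ, the only 2 of the 50 that passed, against 0.857% and 2.22% of all genes, with a median of -0.05. Interactions had a median of 0.18 and 0 passed the adjusted p by limma. An unadjusted p under 0.05 in either direction was reached by 16 of the 50, where 1259 of all 13307 genes reached it. After depletion without TGFβ 13 were higher and 11 lower, shares near the 23.1% and 24.3% of all genes, with a median of 0.02. POLD4, the small subunit of polymerase δ, was the only call (0.81, adjusted p 5.96e-07), where 7.95% and 10.4% of all genes were called. Under TGFβ depletion raised 26 and lowered 6, against 24.5% and 25.9% of all genes, with a median of 0.23. The 8 calls, all higher, where 8.81% of all genes were called higher, were ASF1B (0.93), POLD4 (0.75), RNASEH2C (0.73), DSCC1 (0.71), RNASEH2A (0.71), CCNE1 (0.70), E2F8 (0.69) and KIAA0101 (0.63), the PCNA-binding factor also named PCLAF. ASF1B is a histone chaperone that hands histones to CAF-1, and CCNE1 is a cyclin that drives entry into S phase. CCNE2, the other E cyclin of the list, had a value of -0.30 and did not pass (limma adjusted p 0.0586). The 6 genes that fell were E2F7 (-0.57), RB1 (-0.37), E2F4 (-0.30), TOP1 (-0.30), TOPBP1 (-0.28) and CLSPN (-0.24). The proliferation marker MKI67 did not follow the 8 called genes in this comparison (-0.08). Its counts were 22096 and 22111 in siControl + TGFβ and 23987 and 18309 in siPHF13 + TGFβ. By limma MKI67 fell after TGFβ in control cells (-0.41, adjusted p 0.0108) and after depletion without TGFβ (-0.32, adjusted p 0.0147). Its response to TGFβ in depleted cells was -0.16 (adjusted p 0.504), with an interaction of 0.24 (adjusted p 0.641).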

How the data were processed

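mRNA of Panc-1 cells was sequenced by the authors (paired-end, 150 bp) in 4 conditions of 2 libraries. Per the labels and methods, reads were trimmed with Trim Galore 0.4.1 (quality 30), mapped to hg19 with STAR 2.7.0, counted on exons with HTSeq 0.12.4 and normalized with DESeq2. The annotation release and strand setting are not given in the sources used here. The deposited signal is the count divided by the library's size factor. In every library all values were whole multiples of 1 step, the worth of 1 read, to within 5.5e-10 of a read, so reads were recovered. The authors' comparison tables (fold changes, p-values) were not used.

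Comparisons came from one limma 3.58.1 fit (R 4.3.3, trended prior) on log2(normalized count + 1) over all 8 libraries, with Benjamini-Hochberg adjustment over 13307 genes. A minimum of 10 in 2 libraries removed 0 genes. A call needed both a log2 fold change beyond 0.58 in size and an adjusted p under 0.05. Tests were two-sided. Nothing states that replicates are separate cultures, so p-values measure the spread between these samples. Alternatives were a pseudocount of 5, other minimums, TMM, fewer libraries, a replicate block, edgeR 4.0.16, DESeq2 1.42.0, a GC and length correction and leaving out each library. Scripts were tested on simulated data. Transcripts of GENCODE v44lift37 on GRCh37 matched 13114 genes (98.5%), 797 through RefSeq synonyms, and all 51 genes through MANE Select.

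The genes, lists and tests were chosen with earlier results of these data known. Per-library values are given for genes called in any comparison and, in a role group with no call, for the member with the highest mean. Counting error is not given for single genes, since replicates differ by more than it.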

Additional observations from a re-analysis of the deposited data

Results flagged for a closer look

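The response to TGFβ differed between siPHF13 and siControl cells by the interaction test in 2 of the 51 replication genes. ORC1 had an interaction of 0.64 on the log2 scale (SE 0.13, interval 0.37 to 0.92, limma adjusted p 0.0485), from a response of -0.61 in siControl cells and 0.03 in siPHF13 cells. MCM2 had an interaction of 0.43 (SE 0.086, interval 0.25 to 0.62, adjusted p 0.0485), from -0.50 and -0.06. Across all settings the values ran from 0.57 to 0.71 for ORC1 and from 0.40 to 0.47 for MCM2. Adjusted p values over the alternatives ran from 0.00397 to 0.322 and from 0.00265 to 0.443. Both genes lost the adjusted p without any one library other than siPHF13 + TGFβ replicate 1.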

How the results depend on the processing

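Without the fold threshold, genes called numbered 21 for depletion, 34 for TGFβ in siControl cells, 35 for depletion under TGFβ and 2 for the interaction. Correction for GC content and length gave 5 for TGFβ in siControl cells. The replicate block gave 0 interactions called and 0 past the adjusted p, and DESeq2 gave 4 past it. Same-numbered libraries did not deviate together over all genes (correlations of -0.09 to 0.05). This shows no shared shift but cannot show whether they were handled together, which no label states. The block moved no other count by over 1.5 times. Leaving out each library gave 5 to 6 genes called and 10 to 22 past the adjusted p for depletion, 3 to 6 and 16 to 37 for TGFβ in siControl cells, 8 to 14 and 30 to 38 for depletion under TGFβ, 0 and 0 to 4 for TGFβ in siPHF13 cells, and 0 to 5 and 0 to 17 for the interaction. A condition left with 1 library was assumed to vary like the others. The cause of these shifts was not tested. There were 92 pairs of a gene and a comparison past the adjusted p. A value was counted as kept if it stayed past the adjusted p and, where the gene was called, past the fold threshold, in the same direction. Under settings that kept all libraries 807 values of these pairs were kept and 19 were not. With 1 library left out more were not kept, and 0 reversed under any setting. With 2 libraries a condition, intervals of an interaction reached 0.26 to each side at the median.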
